A study of Mus musculus with 2 samples.

Results

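Interferon-stimulated genes and the parts of the interferon signalling chain were examined in laser-captured liver areas of PiZ mice. The set holds 51 genes: 28 targets of type I interferon, 9 GTPases induced by interferon-gamma, and 14 receptors, kinases and transcription factors. Members were taken as the genes named by a probe set that lists no other gene. By this rule 48 of the 51 were measured, among 30743 genes on the array. Ifi47 and Gbp6 lay only on probe sets shared with another gene, and no probe set listed here named Ifi44. A probe set is the group of array probes that reads 1 transcript cluster.

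Both groups came from untreated C57BL/6 PiZ mice kept on standard chow and killed at 3 months of age. These mice are transgenic for human ATZ, the Z mutant of alpha-1-antitrypsin, under its own promoter, so the control areas carry the transgene too. Globules are deposits of this mutant protein, which forms polymers inside liver cells. Cresyl Violet was used to stain frozen liver sections, and areas with globules and areas free of them were cut out by laser, so areas were chosen by morphology. Each group was 1 array, and each array held RNA pooled from 2 mice, with 50 ng of RNA as input. The labels do not say whether both pools came from the same mice. No replicates exist, so no test was run, no p-value or SD is given, and every value below describes these 2 arrays.

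Interferons are secreted signals of virus and microbe defence. Type I interferons bind the receptor of Ifnar1 and Ifnar2, and interferon-gamma binds that of Ifngr1 and Ifngr2. The receptors activate the kinases Jak1, Jak2 and Tyk2, which phosphorylate STAT proteins. Stat2 and Irf9 belong to the complex that binds the interferon-stimulated response element (ISRE) in target promoters, and another promoter element of the pathway is the gamma-activated site (GAS). The targets degrade viral RNA, block translation or entry, tag proteins, and attack the membranes of vacuoles that hold microbes. In liver, hepatocytes, Kupffer cells and endothelial cells can all respond.

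Promoter sequence is shown here for the members whose differences lead the account. Promoter windows, from 250 before to 50 after an annotated start, were taken from RefSeq (GRCm38.p6) and matched by symbol for 39 of the 51 members. The ISRE core was searched as GAAANNGAAA on both strands, and the GAS core as TTCNNNGAA, which reads alike on both strands. The 2 cores can overlap. An ISRE match lay in the windows of 17 of 39 members (43.6%), against 3.99% of all 27025 genes with a window. By class, it lay in 9 of 18 type I targets, 6 of 7 GTPases and 2 of 14 signalling genes. A GAS match lay in 13 of 39 members (33.3%), against 9.55% of all genes. A match describes letters only and is not evidence of binding.

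Isg15 and Irgm2 were the largest differences in each direction with a window in the table. Igtp and Irgm1 are relatives of Irgm2, and Bst2, Ifit1 and Ifit3 show other arrangements of the same cores. These last 5 were chosen after their values were seen. Each stretch holds 130 bases 5′ to 3′ on the gene's own strand, capitals mark ISRE and GAS matches, and positions count back from the base before the start as -1. The Bst2 and Ifit3 stretches run from -190 to -61, and the others from -130 to -1. The stretches lie at chr4:156200819-156200948 (minus strand, Isg15), chr11:58214847-58214976 (plus, Irgm2), chr11:58199426-58199555 (plus, Igtp), chr11:48871421-48871550 (minus, Irgm1), chr8:71537533-71537662 (minus, Bst2), chr19:34640759-34640888 (plus, Ifit1) and chr19:34583339-34583468 (plus, Ifit3).
Isg15: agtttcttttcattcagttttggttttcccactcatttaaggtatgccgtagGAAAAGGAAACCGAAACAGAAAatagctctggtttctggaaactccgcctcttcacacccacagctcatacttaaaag
Irgm2: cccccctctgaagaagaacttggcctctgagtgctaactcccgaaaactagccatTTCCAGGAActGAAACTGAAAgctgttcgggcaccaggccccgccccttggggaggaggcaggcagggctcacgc
Igtp: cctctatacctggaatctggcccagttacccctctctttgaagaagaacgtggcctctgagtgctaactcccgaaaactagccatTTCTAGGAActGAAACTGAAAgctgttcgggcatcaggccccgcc
Irgm1: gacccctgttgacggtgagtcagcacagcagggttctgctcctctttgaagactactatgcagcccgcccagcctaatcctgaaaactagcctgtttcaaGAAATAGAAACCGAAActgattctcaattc
Bst2: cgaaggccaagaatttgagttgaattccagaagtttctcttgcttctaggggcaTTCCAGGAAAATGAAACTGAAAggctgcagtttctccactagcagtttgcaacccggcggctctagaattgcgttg
Ifit1: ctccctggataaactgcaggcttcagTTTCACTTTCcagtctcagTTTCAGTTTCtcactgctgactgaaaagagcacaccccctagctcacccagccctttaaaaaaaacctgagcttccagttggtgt
Ifit3: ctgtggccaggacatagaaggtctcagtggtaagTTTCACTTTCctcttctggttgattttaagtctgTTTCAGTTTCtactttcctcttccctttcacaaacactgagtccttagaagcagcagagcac

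The Isg15 stretch carries 3 overlapping ISRE matches that start at -78, -72 and -66. In Irgm2 the GAS match starts at -75 and the ISRE match at -64, and Igtp has the same pair at -45 and -34. Igtp and Irgm2 were aligned at the ISRE match without gaps, over the 60 bases before its start and the 30 from it. They were identical at 86 of these 90 bases (95.6%), and the rest of the windows was not compared. In Bst2 the GAS match at -136 overlaps an ISRE match at -130, which overlaps another at -124. Ifit1 and Ifit3 each carry 2 separate ISRE matches on the opposite strand. Among members above the floor, a mean log2 signal of 4.76 that is explained below, the 16 with an ISRE match had a median log2 difference of -0.11 and the 19 without had 0.14. The 10 members with no window had -0.04. Among those with a match, 7 differences lay above 0 and 9 below. Among those without, 11 lay above and 8 below. Over all genes above the floor, 54.3% lay above and 45.7% below. GTPases had a match far more often than signalling genes, so match and class cannot be told apart. A link between match and difference was not tested.

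The values are log2 signals as deposited, and a difference is globule-containing minus globule-free, so 1 unit is 2-fold. Where a gene is given as a pair of values, the globule-containing array comes first. The floor of 4.76, applied to a gene's average over the arrays, is the median of that average among probe sets naming 1 gene. It left 15320 genes and 45 members. Olfactory and vomeronasal receptors, not expected in liver, gave the background as the 95th percentile of their probe sets, at 4.85 on the globule-containing and 5.02 on the globule-free array. On both arrays 43 members exceeded it, and Gbp2 exceeded it on the globule-containing array only. Oasl2, Oas3, Mx1 and, averaged over its probe sets, Irf1 did not exceed it on either. The last 3 also lay below the floor.

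As a set, interferon genes had differences on both sides of 0. Of the 45 members, 22 had a difference above 0 (48.9%), against 54.3% of all genes above the floor, and 23 had one below 0, against 45.7% of all genes. Rtp4, Isg15 and Ifngr1 were at least 2-fold higher, which is 6.67% of members against 6.44% of all genes. Ifi27 and Irgm2 were at least 2-fold lower, 4.44% of members against 5.27% of all genes. The member median was -0.03 and the median over all genes 0.05. The quartiles were -0.21 and 0.35 for members, and -0.25 and 0.39 for all genes. At 1.5-fold, Ifit2, Usp18 and Ifngr2 joined the higher members and Iigp1, Irf7 and Parp9 the lower ones, giving 6 higher and 5 lower. All genes above the floor passed 1.5-fold at 15.9% higher and 11.9% lower. These shares lie near the background and are no result about the members. In such captured areas, fewer cells of a type and less RNA per cell cannot be told apart.

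**Figure D1:**
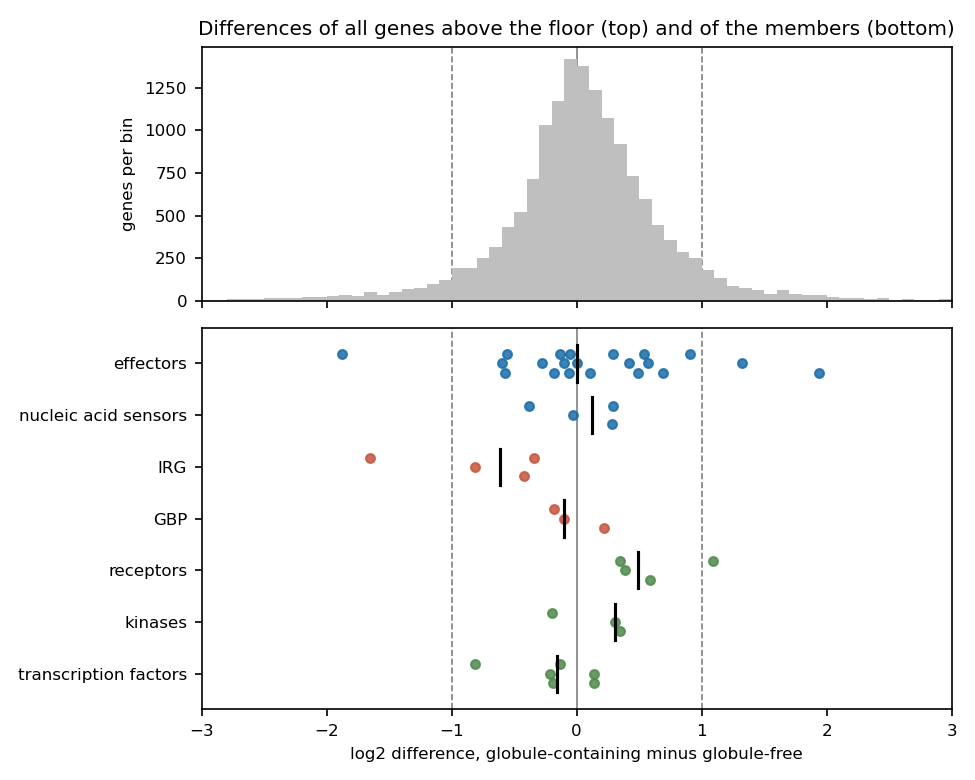
Top: number of genes per bin of 0.1 in log2 difference (globule-containing minus globule-free) for the 15320 genes above the floor, with 151 genes beyond 3 on either side not drawn. Bottom: each dot is 1 of the 45 members above the floor, by role, with a black bar at the role's median and dashed lines at 2-fold; IRG genes sit left of 0 with a median of -0.62 and receptors right of 0 with 0.49.

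By role, the 4 measured IRG GTPases all had differences below 0, as did 45.7% of all genes, and the 4 receptor chains all had differences above 0, as did 54.3% of all genes. The type I targets spread both ways around a median of 0.00. The signalling class had a median of 0.14 and the GTPase class one of -0.34. Whether any 2 roles differ was not tested, since each group is 1 array.

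**Figure D2:**
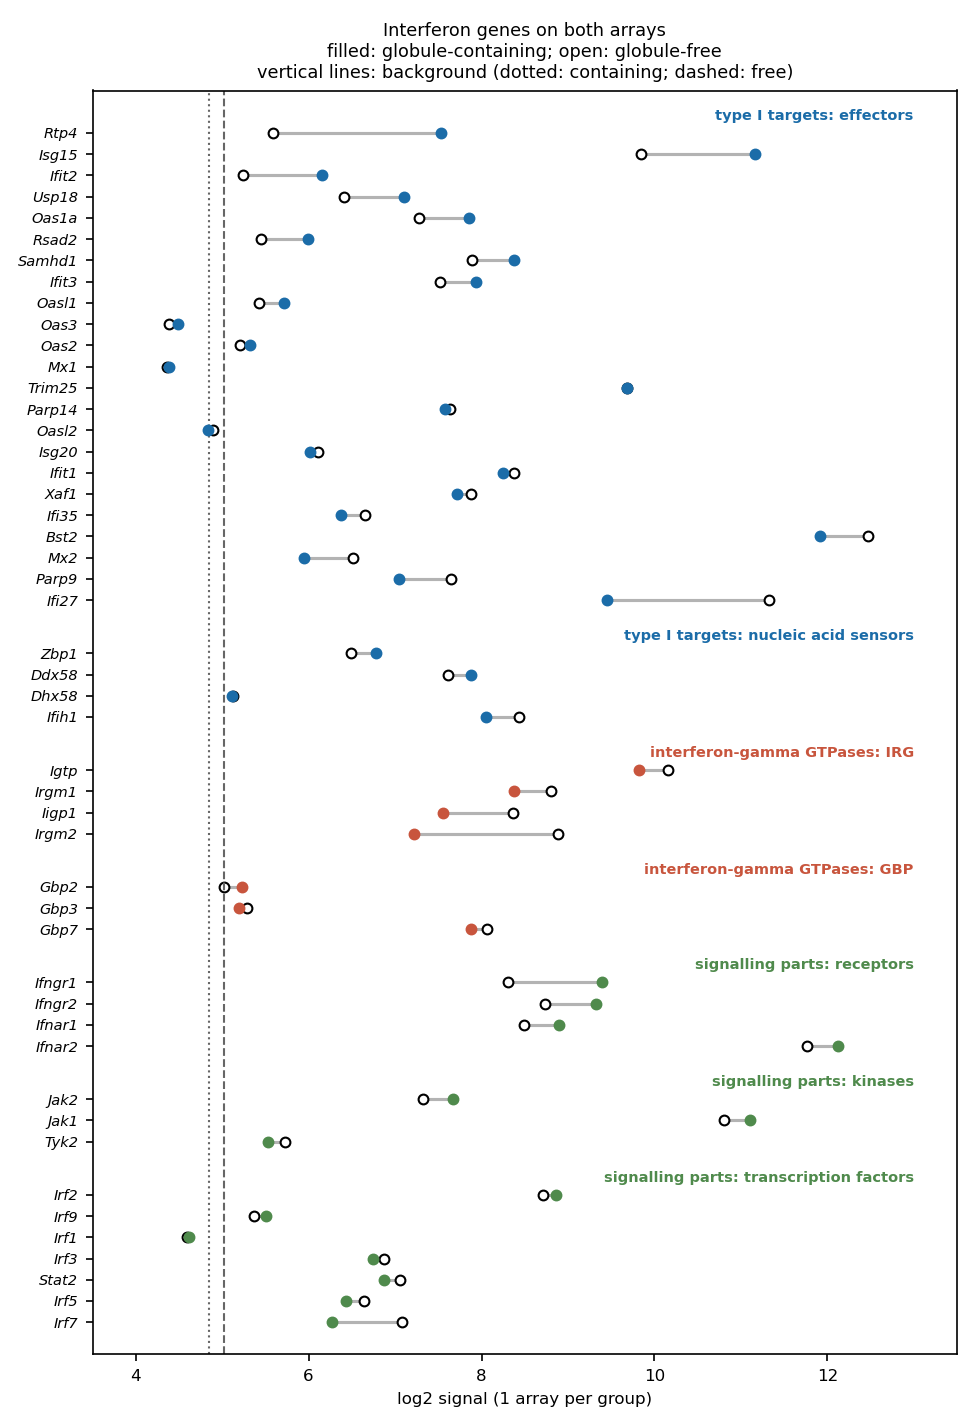
The log2 signal of each of the 48 measured members on the globule-containing (filled) and globule-free (open) array, grouped by role, with vertical lines at the background of each array. All 4 receptors have the filled dot to the right, all 4 IRG genes have it to the left, and Rtp4, Isg15, Ifi27 and Irgm2 show the widest gaps.

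All 4 interferon receptor chains had a higher signal in globule-containing areas. Ifngr1, the ligand-binding chain for interferon-gamma, had 9.39 and 8.30, 2.14-fold higher, and 818 of the 15320 genes had a larger difference. Ifngr2, the signalling chain of that receptor, had 9.32 and 8.73, 1.5-fold higher. Ifnar1, a chain of the type I receptor, had 8.89 and 8.49, a difference of 0.39. Its partner Ifnar2 had 12.12 and 11.77, a difference of 0.35 that became 0.18 after loess correction. Ifnar1, Ifnar2 and Ifngr2 are encoded on chromosome 16 together with Il10rb, the shared chain of the interleukin-10 and interferon-lambda receptors. Il10rb, a gene outside the set, had 6.19 and 5.79, and these 4 genes of chromosome 16, grouped after their values were seen, spanned differences of 0.35 to 0.59.

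Of the Janus kinases, which carry the signal from the receptors, Jak1 and Jak2 had slightly higher and Tyk2 slightly lower signals in globule-containing areas. Jak1, used by both receptor types, had 11.11 and 10.80. Jak2, which serves the interferon-gamma receptor, had 7.67 and 7.32. Tyk2, which serves the type I receptor, had 5.53 and 5.73. None of the 3 was 1.5-fold apart.

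The transcription factors of the pathway had a median difference of -0.16 over the 6 above the floor, 2 above and 4 below 0. Irf7, the interferon-inducible factor that amplifies type I interferon production, stood lowest at 6.27 and 7.08, 1.75-fold lower. Irf5, which acts downstream of toll-like receptors in myeloid cells, had 6.43 and 6.64. Irf3, the constitutive factor that starts interferon production, had 6.74 and 6.87. Stat2, a subunit of the ISRE-binding complex, had 6.87 and 7.06. Its DNA-binding partner Irf9 had 5.51 and 5.37. Irf2, a repressor of ISRE-driven genes, had 8.86 and 8.71. Irf1, an activator induced by interferon-gamma, averaged 4.61 and 4.59 over its probe sets, below background on both arrays. Its brighter probe set read 4.99 and 5.04, just above background on both, and its dimmer one 4.23 and 4.14. Apart from Irf7, every factor above the floor lay within 0.21 of 0.

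Among the IRG proteins, immunity-related GTPases that act on vacuoles of intracellular microbes, every measured member had a lower signal in globule-containing areas. Irgm2 had 7.22 and 8.88, 3.15-fold lower, and 326 of 15320 genes had a more negative difference. Iigp1, an effector that oligomerises on vacuoles, had 7.55 and 8.36, 1.76-fold lower. Irgm1, a regulator of the effector GTPases, had 8.37 and 8.80. Igtp, also named Irgm3, had 9.82 and 10.16. The median of these 4 was -0.62, and all 4 stayed below 0 in each scaling of the arrays. Of the promoter pair shown above, Irgm2 thus differed by -1.65 and Igtp by -0.34. Ifi47 read 3.96 and 4.14 on a probe set shared with the olfactory receptor Olfr56, below background on both arrays.

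The GBP proteins are guanylate-binding GTPases that coat microbes and their vacuoles, and the 3 measured members lay within 0.22 of 0. Gbp7 had 7.88 and 8.06, and Gbp3 had 5.19 and 5.29. Gbp2 had 5.23 and 5.02, the latter at background. The probe set shared by Gbp6 and Gbp10 read 9.41 and 9.86, a difference of -0.46 that cannot be assigned to either gene. Related GBP and IRG genes lie in clusters of similar sequence and can share hybridisation, so their values are uncertain to that extent.

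Further GTPases outside the set were taken from a list of other interferon-stimulated effectors. Gm4951, an IRG-family gene, had 11.60 and 13.06, 2.76-fold lower. Gbp8 had 7.83 and 8.46, and Gbp11 had 11.16 and 11.79. Gbp4 and Gbp9 differed by -0.17 and -0.13. The probe sets shared by the IRG-family genes Tgtp1 and Tgtp2 and by Gm12185 averaged 5.56 and 4.82, a raw difference of 0.74. The latter value lay below background, so the difference would be smaller with it raised to background. The probe set shared by Gbp5 and Gbp2b read 4.77, below background, and 5.07. With the 7 measured members, 12 IRG and GBP genes with probe sets of their own were above the floor. Of these 12, 11 had a difference below 0, as did 45.7% of all genes. Irgm2 and Gm4951, 2 of the 12, were at least 2-fold lower, as were 5.27% of all genes. This grouping was made after the values were seen, and its median was -0.38. Beside it, of 14 macrophage markers, 5 passed 2-fold downwards and 5 upwards. Clec4f, a marker of resident Kupffer cells, was 8.28-fold lower, and Lyz2, a lysozyme of myeloid cells, was 40.5-fold higher. The part of these markers in the GTPase values was not tested.

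The type I targets held the highest and the lowest single difference of the set. Rtp4, an interferon-induced chaperone of surface receptors, had 7.53 and 5.59, and 242 of 15320 genes had a larger difference than its 1.94. Isg15, a ubiquitin-like protein that is conjugated to other proteins after interferon exposure, had 11.16 and 9.84, 2.49-fold higher. In the opposite direction, Ifi27, a mitochondrial interferon-induced protein, had 9.45 and 11.33, 3.67-fold lower, and 241 genes had a more negative difference. Ifi27l2a, a relative of Ifi27 outside the set, had 10.69 and 9.09, 3.05-fold higher. The 2 relatives therefore differed in opposite directions, although both are classed as interferon targets.

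Enzymes of ISG15 conjugation, grouped after their values were seen, had higher or nearly equal signals in globule-containing areas. Ube2l6, the conjugating enzyme, had 10.33 and 8.97, 2.57-fold higher. Herc6, the ligase in mice, had 7.50 and 7.03. Usp18, which removes ISG15 and dampens type I receptor signalling, had 7.10 and 6.41, 1.61-fold higher. Uba7, the activating enzyme, had 5.39 and 5.37. Together with Isg15, the 5 had a median difference of 0.69, with Uba7 lowest at 0.02. All 5 differences lay above 0, as did 54.3% of all genes above the floor. After quantile normalization 4 of the 5 did.

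**Figure D3:**
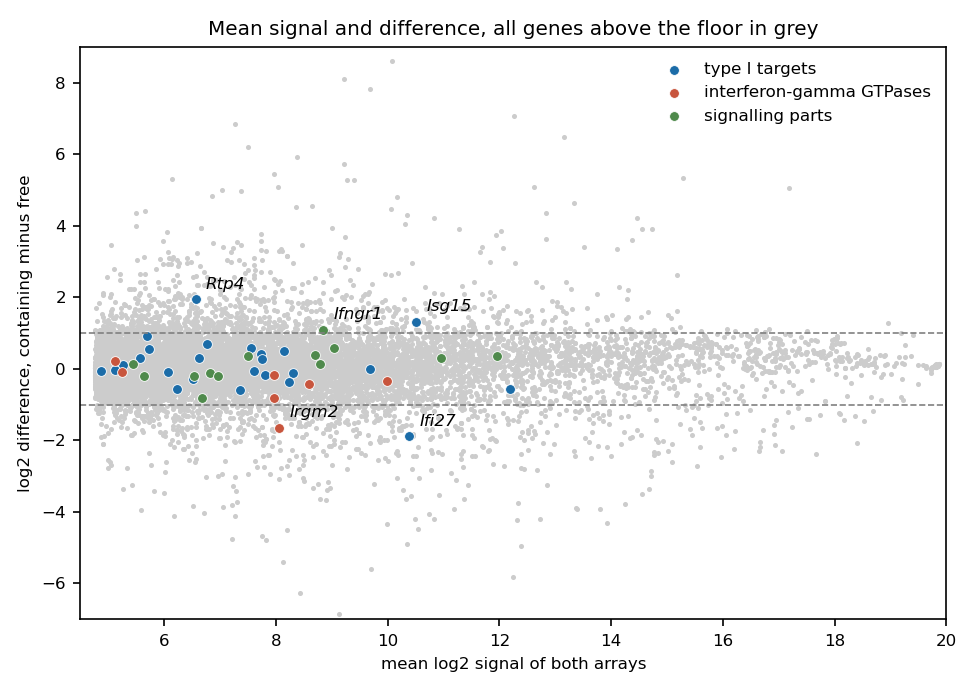
Mean log2 signal of both arrays (horizontal) against log2 difference, globule-containing minus globule-free (vertical), with all genes above the floor in grey, the 45 members in colour by class and dashed lines at 2-fold. The 5 named members lie outside the dashed lines, and the grey cloud reaches much further in both directions, from -6.85 to 8.60.

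The IFIT proteins, which bind viral RNA and restrain its translation, did not move as a block. Ifit2 had 6.15 and 5.24, 1.87-fold higher. Ifit3 had 7.94 and 7.52. Ifit1, whose window carries 2 ISRE matches like that of Ifit3, had 8.25 and 8.37. Their differences thus ran from -0.13 to 0.91.

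The OAS enzymes make an oligoadenylate that activates an RNA-degrading nuclease, and several lay close to background. Oas1a had 7.85 and 7.28, 1.48-fold higher. Oasl1, which restrains translation of Irf7, had 5.72 and 5.42. Oas2 had 5.32 and 5.21. Oasl2 read 4.83 and 4.89, and Oas3 read 4.49 and 4.38, both at or below background. No OAS member was 1.5-fold apart.

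Other antiviral effectors split in both directions. Rsad2, which encodes viperin, had 5.99 and 5.45. Samhd1, which depletes nucleotides needed for reverse transcription, had 8.38 and 7.89. Trim25, the ubiquitin ligase that acts with the RNA sensor RIG-I, had 9.68 on both arrays. On the lower side, Mx2, a dynamin-like antiviral GTPase, had 5.94 and 6.51, while its relative Mx1 read 4.38 and 4.36, below background. Mx1 carries a disabling deletion in many laboratory strains, C57BL/6 among them.

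Bst2, the tether that holds budding virus at the cell surface, had 11.91 and 12.47, 1.47-fold lower, and -0.74 as its difference after loess correction. Bst2 is also a surface marker of plasmacytoid dendritic cells, the main makers of type I interferon. Siglech, a defining marker of those cells, went the other way at 6.16 and 5.27.

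Parp9, a partner in the response to DNA damage and interferon, had 7.05 and 7.65, 1.51-fold lower, and its family member Parp14 had 7.58 and 7.63. Xaf1, a pro-apoptotic target of interferon, had 7.71 and 7.88. Ifi35, which binds the factor Nmi, had 6.37 and 6.65. Isg20, an exonuclease that degrades viral RNA, had 6.01 and 6.11. Apart from Parp9, these 4 lay within 0.28 of 0.

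Nucleic acid sensors that are themselves interferon targets differed little. Ifih1, which encodes the long-RNA sensor MDA5, had 8.05 and 8.43. Ddx58, which encodes RIG-I, had 7.88 and 7.61. Dhx58, the regulatory relative LGP2, had 5.11 and 5.13. Zbp1, a sensor of Z-form nucleic acid that can start necroptosis, had 6.78 and 6.49. All 4 lay within 0.38 of 0, with 2 above and 2 below it.

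The interferon ligands gave little signal. Of 21 listed ligand genes, 19 were measured, 11 lay at or below background on both arrays and 3 exceeded it on both. Ifnb1 read 4.21 and 4.15 and Ifng 4.19 and 4.45, all below background. Among ligand genes above the floor, Ifna13 had 4.75 and 5.56 and Ifna1 had 4.57 and 5.29, each with the lower value at background. Ifnl3 had 5.27 and 4.72, the latter below background, and Ifna4 had 5.51 and 5.32. The interferon-alpha genes are close copies whose probes can share signal.

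Upstream of interferon, 12 of 15 listed genes of nucleic acid sensing were above the floor. Their median was 0.28. By measured values 3 passed 2-fold upwards, where 6.44% of all genes did, and none passed it downwards, where 5.27% did. These 3 were the endosomal toll-like receptors, which detect microbial RNA and DNA in endosomes. Tlr7, for single-stranded RNA, had 7.35 and 6.23, 2.17-fold higher. Tlr9, for DNA, had 5.32 and 4.26, the latter at background, so it was at least 1.23-fold higher. Tlr3, for double-stranded RNA and named after its value was seen, had 7.09 and 6.09, 2.01-fold higher. With dim values raised to background, after quantile normalization or after loess correction, 2 of the 3 were at least 2-fold higher. Trim56, a ubiquitin ligase of the DNA sensing route, had 6.08 and 7.02, 1.91-fold lower. Mavs, the mitochondrial adaptor of the RNA sensors, had 8.65 and 9.28.

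Of 14 other signalling genes and inhibitors, 7 were above the floor and none was at least 2-fold apart. Ptpn11, a phosphatase of cytokine receptors, had 9.04 and 8.19, and Pias1, an inhibitor of cytokine signalling, had 8.51 and 8.04. Stat3, the factor of interleukin-6 signalling, had 7.85 and 8.53, 1.60-fold lower. The inhibitors Socs1 and Socs3 read at or below background on both arrays.

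Of 48 other listed interferon-stimulated effectors, 36 were above the floor and their median was 0.09. Ifi27l2a and Ube2l6 passed 2-fold upwards, and Gm4951 passed it downwards. Over all genes above the floor, 6.44% passed 2-fold upwards and 5.27% downwards, so these counts are no result about the list. For antigen presentation, 15 of 20 listed genes were above the floor. Their median was 0.07, 3 passed 2-fold upwards and none downwards, beside the same 6.44% and 5.27% of all genes. The 3 were MHC class II chains, which display peptides on antigen-presenting cells. H2-Eb1 had 8.88 and 6.13, 6.76-fold higher. H2-Ab1 had 8.14 and 6.63, 2.84-fold higher. H2-Aa, named after its value was seen, had 7.34 and 6.09. The class I chains H2-K1 and H2-D1, also named after their values were seen, had 12.75 and 13.05, and 13.02 and 13.08. Psmb8, an immunoproteasome subunit, had 5.73 and 6.09, and Erap1, the peptide-trimming enzyme, had 9.19 and 10.04. The 8 immunoproteasome and peptide transport genes above the floor split, 4 above and 4 below 0 with a median of 0.07. Beside the class II chains and toll-like receptors, of 14 macrophage markers 5 passed 2-fold upwards and 5 downwards. Lyz2, Ctss, Cd68, Tyrobp and Csf1r were 40.5-fold, 33.8-fold, 13.3-fold, 12.4-fold and 2.04-fold higher. Clec4f, Cd5l, Vsig4, Timd4 and Marco were 8.28-fold, 6.41-fold, 5.44-fold, 3.93-fold and 2.92-fold lower. Apart from Clec4f, these markers were named after their values were seen. Their part in the class II and toll-like receptor values was not tested.

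**Figure D4:**
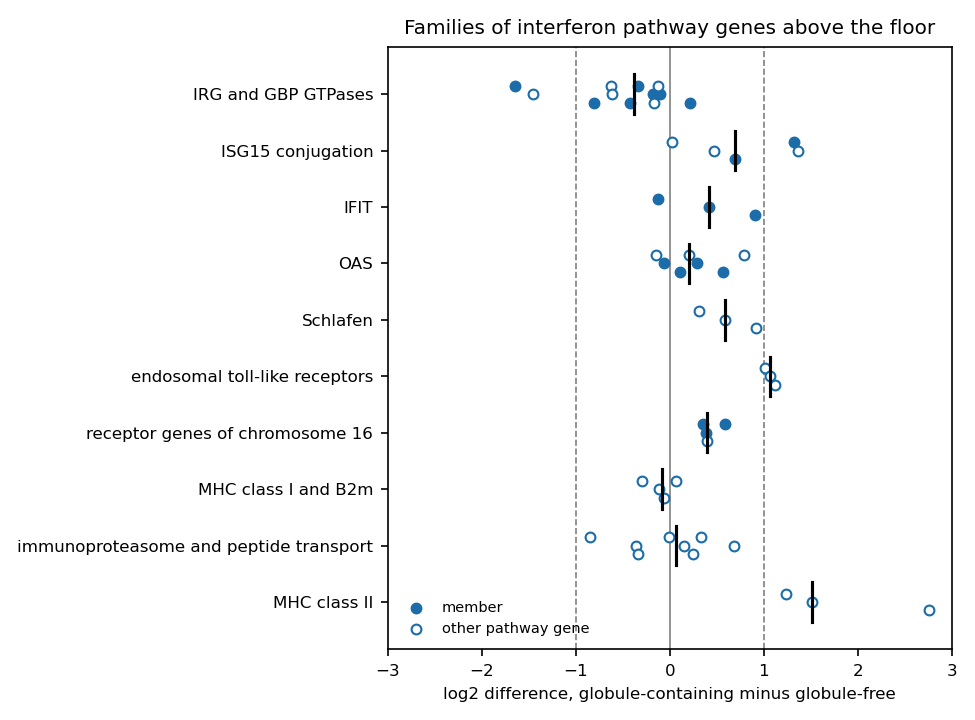
Log2 difference (globule-containing minus globule-free) of interferon pathway genes above the floor by family, with members filled, other pathway genes open, a black bar at each family's median and dashed lines at 2-fold. IRG and GBP GTPases lie mostly left of 0 with a median of -0.38, while endosomal toll-like receptors (1.07) and MHC class II genes (1.51) lie right of 1.

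Cell type markers were read on the same arrays. Mean levels below are over all measured genes of a list, those under the floor included, while medians are over genes above it. Alb, the hepatocyte marker, was saturated on both arrays, as was Apoa2 of the same list. The 9 measured hepatocyte genes had mean levels of 17.28 and 17.82. Their median difference was -0.39, with 3 above and 6 below 0. The 3 above 0 include the saturated Alb and Apoa2, at 0.10 and 0.13, whose signals cannot show a difference. Cyp2e1, at 0.12, was the only unsaturated gene above 0. Cps1 was 5.17-fold lower, and no other hepatocyte gene was at least 2-fold apart. Over all genes above the floor, 6.44% passed 2-fold upwards and 5.27% downwards. Of 11 stellate cell and fibroblast genes, 10 were above the floor and all 10 passed 2-fold upwards, with a median of 2.30 and mean levels of 8.96 and 6.74. Dcn, a matrix proteoglycan of these cells, was 10.7-fold higher. The macrophage list of 14 genes split, 5 past 2-fold upwards and 5 downwards, with a median of 0.04. Its mean level was 9.32 on the globule-containing and 8.80 on the globule-free array. Of 8 neutrophil genes, 5 were above the floor, with a median of 0.27, and 2 passed 2-fold upwards. The list had mean levels of 6.45 and 4.95. Its genes above the floor, named after their values were seen, did not move alike. S100a8 and S100a9 differed by 5.92 and 4.54, while Ly6g, Cxcr2 and Csf3r differed by 0.27, 0.11 and 0.09. Endothelial genes had a median of -0.01 over 8 genes, and Pecam1 had 6.56 and 6.48. Of 12 T and NK cell genes, 10 were at or below background on both arrays, Cd3e among them, and so were 3 of 4 B cell genes, Cd79a among them. Krt19 of cholangiocytes read 5.11 and 4.77, the latter below background, and the cholangiocyte list had mean levels of 5.23 and 4.88. The plasmacytoid dendritic cell list had a median of 0.44 over 5 genes and mean levels of 5.82 and 5.43. The part of any of these cells in the interferon gene values was not tested.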

How the data were processed

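RNA from laser-captured areas was measured on 2 arrays, 1 per group. The authors deposited log2 signals per probe set. The Transcriptome Analysis Console is the tool named, without a version, in the submitters' processing notes. How background was corrected and arrays normalized, and on which build, is not given in these sources. The log2 scale was read from the values, which run from 1.85 to 19.93. Precision is limited by the number of arrays.

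Of 72688 probe sets, 31216 named 1 gene, 1534 several and 39938 none listed here. A probe set whose names all belong to 1 RefSeq entry (GRCm38.p6) counted as 1 gene, and 1439 symbols were updated this way. Probe sets of a gene were averaged. The floor, background and 2-fold threshold are given above. Probe sets within 0.2 of an array's maximum counted as saturated. Where 1 array lay at background, the fold is a bound with the dim value raised to it. Functions were tested on simulated data with known shifts.

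The members, lists and thresholds were chosen with earlier results of these data known. All 51 members are named. Of each other pathway list, the 2 largest differences in each direction above the floor are named, with 1 marker per cell type (Alb, Clec4f, Siglech, Cd3e, Cd79a, Pecam1, Dcn and Krt19). Genes named outside this rule, among them Ifnb1, Ifng, Socs1, Socs3, Il10rb, Lyz2 and the further GTPases and ISG15 enzymes, were chosen after their values were seen. One item that the rule names is not reported here. Python 3.11.15, numpy 2.4.6, pandas 2.3.3 and statsmodels 0.14.6 were used.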

Additional observations from a re-analysis of the deposited data

How the results depend on the processing

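Alternatives were centring on the median, quantile normalization, loess correction, no floor, a floor at the 75th percentile, both arrays above background, the brightest probe set of a gene, probe sets that name several genes, dim values raised to background, and a 1.5-fold threshold. Of 56 recomputed counts and medians, 53 stayed close to the reported value: counts within 1.5 times, and medians within 0.17, the median gap between the 2 probe sets of 184 genes that have 2. With the 1.5-fold threshold, 6 members were higher and 5 lower. With the floor at the 75th percentile, 29 members were left and the signalling median was 0.33. The GTPase median lay between -0.44 and -0.31 over the 10 settings that give it. Of 387 recomputed single-member differences, 2 moved by more than 0.17, Bst2 to -0.74 and Ifnar2 to 0.18, both after loess correction. Many of the 387 could not move, because the floor and background filters only choose which members are kept. The probe set choices also left these members' values unchanged. Only centring, quantile normalization, loess correction and raised dim values could move a difference, so the 387 overstate how much was examined. No difference of at least 2-fold changed sign. No paired analysis was possible because each group holds 1 array. No leave-one-out was possible for the same reason. Signal near background limits the OAS, GBP and ligand genes.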

Other observations

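The Schlafen genes, interferon-induced regulators of lymphocyte quiescence and translation, were grouped after their values were seen. Slfn2 had log2 signals of 6.23 (globule-containing) and 5.32 (globule-free), 1.89-fold higher. Slfn8 had 6.52 and 5.94, and Slfn5 had 6.04 and 5.74. Their median difference was 0.59, and none was 2-fold apart.

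The interferon-induced membrane proteins, which block virus entry, went both ways and were also chosen after their values were seen. Ifitm1 had 6.98 and 6.18, 1.75-fold higher. Ifitm2 had 14.03 and 14.48, and Ifitm3 had 16.67 and 17.05. The nucleic acid sensor Ifi204 had 9.02 and 8.36, and Lgals3bp, a secreted glycoprotein induced by interferon, had 9.14 and 8.18, 1.94-fold higher.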
